A study of Mus musculus with 11 samples.

Results

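The cells described here were Lyz2+ cells carrying monocyte markers, proposed as monocytes and monocyte-derived macrophages, in single-cell RNA-seq libraries of mouse brain after experimental stroke or sham surgery. They were selected on their own unique molecular identifier (UMI) counts. A cell had to show more than 500 genes, more than 1000 UMIs and under 25% mitochondrial UMIs, at least 2 UMIs of the myeloid lysozyme gene Lyz2, and at least 2 of the 7 genes Ccr2, Ly6c2, Plac8, Arg1, Ms4a6c, Chil3 and Adgre4. It had to show fewer than 3 of 6 genes of border-associated macrophages (Mrc1, Pf4, Cd163, Lyve1, Cbr2, Ms4a7) and fewer than 2 of 13 genes of other cell types (P2ry12, Tmem119, Siglech, Sall1, Csf3r, Retnlg, Cxcr2, Flt3, Cldn5, Mog, Cd3e, Cd79a, Ncr1). The rule kept 1657 of 132437 cells, or 1.25%, over all 11 libraries. At its edges, 822 members had exactly 2 of the 7 markers and 1425 cells were left out with 1, while 406 members had 2 Lyz2 UMIs and 660 cells were left out with 1. The exclusions removed 9129 cells by the 13 genes and 690 by the 6.

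Each library came from the right brain tissue of 1 mouse, dissociated at 37 °C with lysis of red blood cells and sequenced with a droplet 3′ kit. Wild-type (WT) mice were male C57BL/6 of 8 to 10 weeks, and Lrg1-/- mice were conventional knockouts from a C57BL/6N line, with 3 months in their description and no sex stated, that lack Lrg1 in every cell from exon 1 to the stop codon in exon 2. Both genotypes underwent either sham surgery or middle cerebral artery occlusion for 1 h followed by reperfusion (MCAO/R). The paper lists several reperfusion times and states none for these libraries. Its infarct and edema measurements used the longest of them, a full day. Its discussion speaks of 1 h for the data as a whole, without saying that this was reperfusion. The time for these libraries is therefore unknown. The groups were sham + WT with 3 mice, sham + Lrg1-/- with 3, MCAO/R + WT with 2 and MCAO/R + Lrg1-/- with 3, numbered 1, 2 and 5 in both knockout groups. Substrain and stated age differed along with genotype, sex may have differed too, and their effects cannot be told apart from it.

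Monocytes leave the blood through vessels of injured brain and turn into macrophages there. Inflammatory (classical) monocytes carry Ly6C and the chemokine receptor Ccr2, which draws them towards Ccl2 and Ccl7, whereas patrolling (nonclassical) monocytes carry little of either, depend on the nuclear receptor Nr4a1 and crawl along the vessel wall. As they mature in tissue, the recruited cells take up complement, lysosomal and lipid-handling genes, and some carry Arg1, which turns arginine into ornithine. Microglia, the resident macrophages of the brain, share many of those genes and differ by P2ry12, Tmem119 and Sall1.

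The members came mostly from a pair of mice. MCAO/R + Lrg1-/- replicate 5 held 1057 of them and replicate 2 held 461, together 1518 of 1657 or 91.6%, while replicate 1 of the same group held 20. The 13 exclusion genes removed more cells than that from these mice, 5773 from replicate 5 and 2297 from replicate 2. Over all libraries they removed 9129. These cells had met the Lyz2 and marker limits. The sham + WT libraries held 16, 16 and 19 members, the sham + Lrg1-/- libraries 23, 7 and 8, and the MCAO/R + WT libraries 22 and 8. Library totals ran from 37159497 to 171813031 UMIs. The median member of replicate 5 held 2807 UMIs, against 6137 to 14297 in the other libraries, for a reason that was not tested. A doublet caller marked 60 members, 510 members had at least 5% haemoglobin UMIs, and 56 member barcodes also occurred in another library, 2 of them as members there.

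How well the label of monocytes and their macrophages held depended on the measure. By summed microglial genes it held least well for MCAO/R + Lrg1-/-. Over 12 microglial genes, the summed level in members was 338 to 892 CPM (a gene's UMIs scaled to the same total in every library) in the 8 other libraries but 1313, 1502 and 2663 CPM in MCAO/R + Lrg1-/- replicates 1, 2 and 5, against 3776 to 9926 CPM in cells with 3 or more of 6 microglial genes. Sall1 was at 0 in the members of the sham and MCAO/R + WT groups, Slc2a5 was also at 0 in both WT groups, and all 12 genes were detected in MCAO/R + Lrg1-/-. There Sall1 had a UMI in only 1 of 20, 8 of 461 and 10 of 1057 members, so its absence in smaller groups tells little. P2ry12, Tmem119, Siglech and Sall1, 4 of the 12 genes, are exclusion genes of the rule. The microglia were selected on genes that include these 4, so the sums are no independent test of the label. Members with 3 or more of the 12 genes made up 85.0%, 64.0% and 75.6% of members in these 3 libraries, 0% and 31.8% in MCAO/R + WT and 26.3% to 71.4% in the sham libraries, so that by this count they overlapped with sham. Rule genes also had UMIs in microglia. Ms4a6c had one in 81.2% and 76.7% of microglia in MCAO/R + WT and 45.7%, 67.6% and 56.6% in MCAO/R + Lrg1-/-. In the sham libraries it had one in 8.72% to 22.8%. Plac8 had one in 0.890% to 19.8% over all libraries. Arg1 and Chil3 had UMIs in microglia most often in MCAO/R + Lrg1-/- replicates 2 and 5. Arg1 had a UMI in 13.1% of microglia in replicate 2 and 24.7% in replicate 5, against 0.214% to 2.51% in the other 9 libraries. Chil3 had one in 25.4% and 35.0%, against 0.172% to 2.69%. The neutrophil gene Retnlg had a UMI in 28.5% and 37.2% of the same microglia. Microglia were any non-members with 3 or more of 6 microglial genes. Cells with rule markers that the exclusions removed could therefore be among them. Whether UMIs of these rule genes and of Retnlg came from the microglia themselves was not tested. The cells are therefore named here by their rule. A stricter rule, chosen after the data were seen and asking for 3 of the 7 markers and 5 Lyz2 UMIs, kept 570 cells, among them 242 in replicate 2, 251 in replicate 5 and 13 in the 2 MCAO/R + WT mice.

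Transcripts of other cell types were uneven between genotypes. The sum of 10 erythroid genes, mostly haemoglobins, was 40.5 to 95.6 CPM in members of the 5 WT libraries, 697 to 14690 CPM in sham + Lrg1-/- and 17800 to 44860 CPM in MCAO/R + Lrg1-/-. The sum of 8 choroid plexus genes was 146 to 498 CPM in WT libraries and 4983 to 47890 CPM in Lrg1-/- libraries. All other cells of the libraries were split the same way, at 467 to 953 CPM of the erythroid genes in WT against 35100 to 90780 CPM in Lrg1-/-, and at 1366 to 7470 CPM of the choroid plexus genes against 17890 to 84750 CPM. The sum of 14 neutrophil genes separated surgeries instead, at 3450 to 6341 CPM in members after MCAO/R and 404 to 2843 CPM after sham. The list includes the chemokine Cxcl2, described below, which made up most of the sum in MCAO/R + Lrg1-/- members. The sum therefore does not measure neutrophil transcripts alone. Retnlg, Cxcr2, Camp and Ngp were at 0 in the members of the 3 smaller groups, and Retnlg and Cxcr2 are exclusion genes of the rule. The sum of 9 endothelial genes was 539 and 1007 CPM in MCAO/R + WT members and 1593 to 4832 CPM in MCAO/R + Lrg1-/-. After sham the genotypes overlapped, at 735 to 5082 CPM in WT and 2876 to 14370 CPM in Lrg1-/-. All 8 endothelial genes tested had higher levels in Lrg1-/- in both genotype contrasts, and none was called. The part of the transcripts of these cell types in the results that follow was not tested.

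The share of members among all cells was high in 2 of 3 MCAO/R + Lrg1-/- mice and low everywhere else. It was 2.57% (95% exact binomial interval 2.35% to 2.82%) in replicate 2 and 3.09% (2.91% to 3.28%) in replicate 5, but 0.311% (0.190% to 0.479%) in replicate 1. The MCAO/R + WT mice had 0.221% (0.139% to 0.335%) and 0.0642% (0.0277% to 0.126%). Sham + WT mice had 0.116%, 0.162% and 0.201%, and sham + Lrg1-/- mice 0.243%, 0.123% and 0.246%. The intervals cover counting error only.

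**Figure D1:**
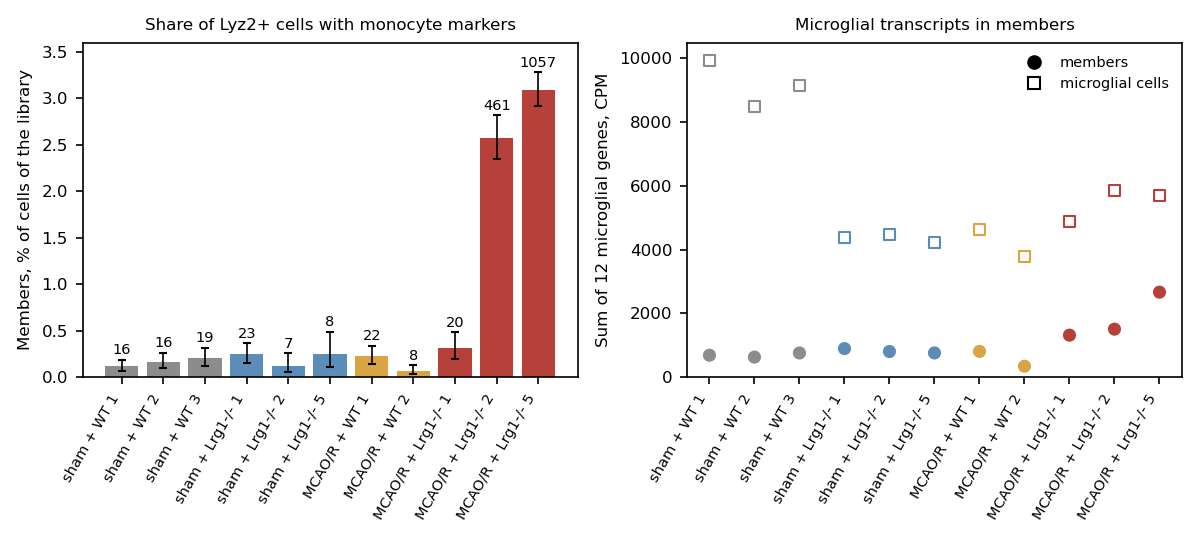
The left panel plots members as a percent of the cells of each library, with the number of members above each bar and 95% exact binomial intervals, and the right panel plots the summed CPM of 12 microglial genes in members (filled circles) and in microglial cells (open squares). MCAO/R + Lrg1-/- replicates 2 and 5 stand apart with 461 and 1057 members, and the 3 MCAO/R + Lrg1-/- libraries have the highest microglial sums in members.

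Between genotypes after MCAO/R the mean share was 1.99% ± 1.48 (SD, n = 3) in Lrg1-/- and 0.143% ± 0.111 (SD, n = 2) in WT, a difference of 1.85 percentage points with p = 0.2 (two-sided exact permutation test, 0.4 after adjustment over 4 comparisons), the smallest p this design allows. All 3 Lrg1-/- mice lay above both WT mice, and without the 2 high libraries in turn the difference was 1.56 and 1.30. Within Lrg1-/-, MCAO/R exceeded sham by 1.79 percentage points (0.204% ± 0.0699 in sham, SD, n = 3), with exact permutation p = 0.1, again the smallest possible, and adjusted p = 0.4. Within WT, the shares after MCAO/R and sham (0.160% ± 0.0427, SD, n = 3) overlapped and differed by -0.0171 percentage points, exact permutation p = 1, and the sham groups differed by 0.0444 with p = 0.3. The sham difference depended on depth. With every cell thinned to 1000 UMIs before the rule, the shares were 0.306%, 0.159% and 0.523% in sham + Lrg1-/- and 0.116%, 0.142% and 0.159% in sham + WT. With 1 Lyz2 UMI as the limit as well, they were 0.327%, 0.176% and 0.616% against 0.123%, 0.142% and 0.159%, so that every Lrg1-/- mouse lay above every WT mouse (exact permutation p = 0.1, the smallest possible). Microglia of MCAO/R + Lrg1-/- replicates 2 and 5 also had UMIs of Arg1 and Chil3. Members with under 3 microglial genes were therefore counted as well. Their shares were 0.151% and 0.0642% in MCAO/R + WT and 0.0466%, 0.927% and 0.755% in MCAO/R + Lrg1-/- replicates 1, 2 and 5, so that replicate 1 then lay below both WT mice. The share of members among cells, MCAO/R + Lrg1-/- minus MCAO/R + WT, was then 0.468 percentage points with exact permutation p = 0.6. Under the stricter rule of at least 3 of the 7 markers and 5 Lyz2 UMIs the shares were 0.0905% and 0.0321% in MCAO/R + WT and 0.171%, 1.35% and 0.734% in MCAO/R + Lrg1-/-, a difference of 0.691 with p = 0.2 (exact permutation test). Fewer cells elsewhere in a library would also raise this share, and the 2 cannot be told apart.

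The 8 rule genes admitted the cells, so their levels are given as a description with no test. Arg1 was at 0 in the members of 5 sham libraries and at 5.03 CPM in sham + WT 3, at 158 and 228 CPM in MCAO/R + WT and at 134, 314 and 786 CPM in MCAO/R + Lrg1-/-. Every MCAO/R library therefore lay above every sham library, and in replicate 5 Arg1 had a UMI in 57.6% of members, or 32.0% with each cell thinned to 1000 UMIs. Chil3, which encodes a chitinase-like protein of inflammatory monocytes, was at 386, 168 and 25.2 CPM in sham + WT, 10.3, 15.9 and 14.5 CPM in sham + Lrg1-/-, 1003 and 6109 CPM in MCAO/R + WT and 146, 1417 and 1208 CPM in MCAO/R + Lrg1-/-. Adgre4, an adhesion receptor of patrolling monocytes, ran the other way. It was at 369, 162 and 392 CPM in sham + WT and 354, 151 and 828 CPM in sham + Lrg1-/-, but at 3.44 and 0 CPM in MCAO/R + WT and 142, 36.3 and 16.4 CPM in MCAO/R + Lrg1-/-.

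Other rule genes were present in nearly every library. Ccr2 ranged from 43.6 to 347 CPM, Plac8 from 276 to 1714 CPM and Ms4a6c from 334 to 731 CPM, with no clean split by surgery or genotype. Ly6c2 ranged from 19.1 to 325 CPM and was at 0 in the 8 members of sham + Lrg1-/- 5, all of which carried Adgre4. Adgre4 had a UMI in 24 of 51 sham + WT members and 26 of 38 sham + Lrg1-/- members, against 1 of 30 and 109 of 1538 after MCAO/R. By mouse the shares overlapped: 7 of 20 members carried it in MCAO/R + Lrg1-/- 1, against 4 of 16 in sham + WT 2. These genes admitted the cells, so their levels describe the members and support no statement on cell composition.

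**Figure D2:**
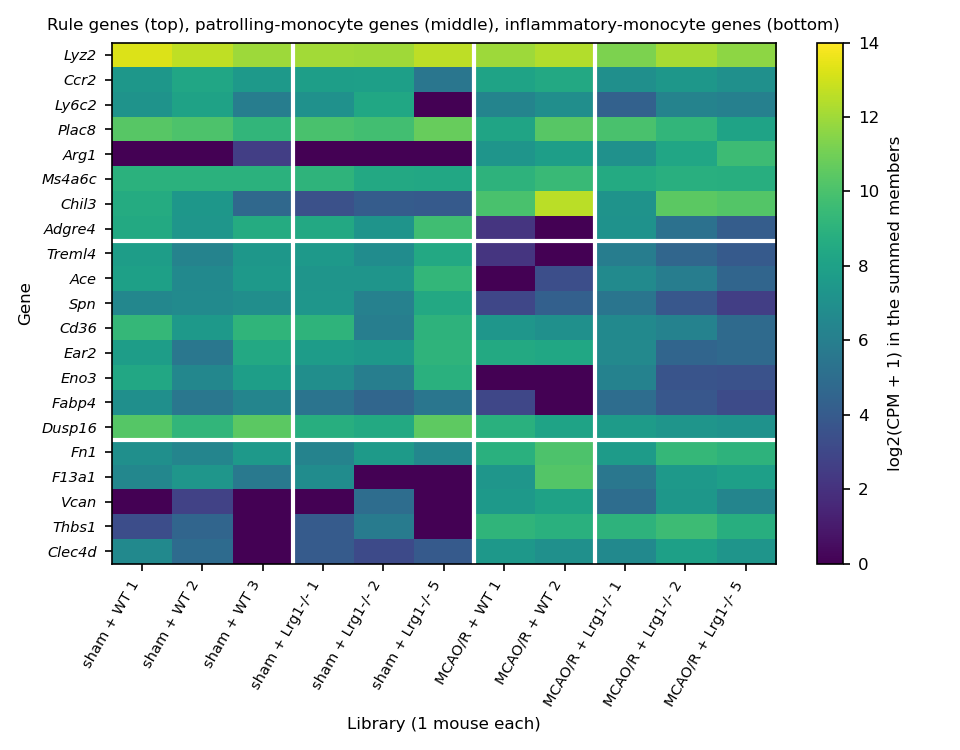
The heat map gives log2(CPM + 1) of 21 genes (rows) in the summed members of each of 11 libraries (columns), with the 8 rule genes on top, 8 patrolling-monocyte genes in the middle and 5 inflammatory-monocyte genes below. Arg1 is at or near 0 in sham libraries and Thbs1 is at most 55.5 CPM there against 440 CPM or more after MCAO/R, whereas Adgre4 and Treml4 are lowest in MCAO/R + WT.

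Lrg1 itself (ENSMUSG00000037095, mm10, chromosome 17, 56119678 to 56122001, minus strand) checked the genotype labels. It had 0 UMIs in the members of all 3 sham + Lrg1-/- and all 3 MCAO/R + Lrg1-/- libraries. Pooled, 0 UMIs allow up to 7.69 CPM in sham + Lrg1-/- and 0.322 CPM in MCAO/R + Lrg1-/-. It was also at 0 in all 3 sham + WT libraries, where the limit was 6.21 CPM, so members after sham could not tell the genotypes apart. In MCAO/R + WT it was found in 4 members of replicate 1 (5 UMIs, 17.2 CPM) and 3 members of replicate 2 (13 UMIs, 119 CPM). In all other cells the mean was 3.34 CPM in sham + WT, 122 CPM in MCAO/R + WT and at most 0.00202 CPM in the knockout groups.

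Differences between groups were tested on the UMIs summed over the members of each mouse with edgeR's quasi-likelihood test, in 1 fit over all 11 libraries. A gene was called at Benjamini-Hochberg adjusted p under 0.05 over the 4821 genes tested and a natural-log fold change over 0.25, and the rule genes were kept out. All 11 libraries were used because a minimum of 20 members, the limit first set, left no group comparison with 2 libraries on each side. That change was made after the member counts were seen, and library sums rest on as few as 7 cells.

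After MCAO/R, members of WT mice were higher than members of sham WT mice in Thbs1, Saa3, Vcan, Ctsl and Cstb, among other genes, and lower in Treml4, Olr1 and Rap1gap2. Of 4821 genes, 10 were called higher (0.207%) and 7 lower (0.145%). The libraries of the groups did not overlap for any of the 17. Called genes seldom overlap, and the share without overlap over all genes was not counted. Here and in the comparisons below, non-overlap therefore adds no support to the calls. The median log2 difference over all genes was -0.00.

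Thbs1, which encodes the matrix glycoprotein thrombospondin 1, was at 8.99, 23.1 and 0 CPM in sham + WT and at 567 and 475 CPM in MCAO/R + WT. The log2 difference was 5.56 ± 0.73 (SE), with edgeR adjusted p = 0.00711. Saa3, an acute-phase protein made by macrophages, had 0 UMIs in all 3 sham + WT libraries and stood at 196 and 694 CPM after MCAO/R, at least 53.4-fold higher against a floor of 3 UMIs over the group (edgeR adjusted p = 0.0145). Both genes rose in each of the 2 mice.

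Vcan, the proteoglycan versican of inflammatory monocytes, had 1 UMI among sham + WT members and stood at 192 and 265 CPM after MCAO/R, a pooled ratio of 102 (95% counting interval 17.9 to 4094). Ctsl, a lysosomal protease, rose from 198, 81.0 and 65.4 CPM to 1199 and 575 CPM, by 2.98 ± 0.53 on the log2 scale (edgeR adjusted p = 0.0309). Cstb, the inhibitor of such proteases, rose from 171, 116 and 90.6 CPM to 557 and 557 CPM, by 2.12 ± 0.34 (edgeR adjusted p = 0.0145). The protease and its inhibitor were thus both called higher.

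Cd14, the co-receptor for bacterial lipopolysaccharide, was at 171, 312 and 151 CPM in sham + WT and 1141 and 1123 CPM in MCAO/R + WT (log2 difference 2.34 ± 0.45, edgeR adjusted p = 0.046). The remaining called genes with higher levels were Mitf, a transcription factor of lysosomal genes (2.83), the glucocorticoid-induced chaperone partner Fkbp5 (3.34), the signalling adaptor Gab1 (3.76) and the calcium channel gene Cacna1d (4.22), all on the log2 scale. Fkbp5 was also higher in all other cells, with means of 371 CPM after MCAO/R and 18.1 CPM after sham. Of the 10 genes called higher, 8 had the same direction in the other cells of these libraries, 5 of them by over 2-fold.

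Among the 7 genes called lower, Treml4, a receptor of patrolling monocytes, was at 225, 75.2 and 171 CPM in sham + WT and at 3.44 and 0 CPM in MCAO/R + WT. With 1 UMI after MCAO/R, the pooled ratio of sham to MCAO/R was 59.7 (counting interval 10.4 to 2392). Olr1, a scavenger receptor for oxidised lipoprotein, was at 71.9, 260 and 262 CPM against 6.87 and 0 CPM. Rap1gap2, a regulator of the adhesion switch Rap1, fell by 4.18 on the log2 scale (SE 0.73, edgeR adjusted p = 0.0289), from 485, 202 and 644 CPM to 24.0 and 27.4 CPM, and Fam49a fell by 3.22.

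Hspa1b, a heat-shock chaperone, fell by 5.27 on the log2 scale, from 1052, 509 and 1102 CPM to 30.9 and 9.13 CPM. Its reads can be split with the near-identical Hspa1a, and it was also lower in all other cells after MCAO/R (31.3 against 299 CPM). Of the 7 genes called lower, 6 had this direction in the other cells and 1 by over 2-fold. The calls depended on replicate 1 of MCAO/R + WT, without which 4 genes were called in place of 17, and on the doublet filter, which also left 4.

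Few genes of the listed programmes passed the test in WT. Of 14 patrolling-monocyte genes tested, 1 was called lower, 13 had lower levels and the median log2 difference was -1.80. Adgre4, a rule gene, marks the same monocytes and had a UMI in a larger share of sham members. That direction is therefore not independent of the rule. All 15 chemokine ligands had higher levels, with a median of 2.44, and none was called: Ccl2, which draws Ccr2+ monocytes, was at 162, 28.9 and 116 CPM in sham + WT and 2024 and 274 CPM after MCAO/R (3.53 ± 0.70, edgeR adjusted p = 0.0523). Of 17 genes of alternative (M2) activation, 16 had higher levels with a median of 1.66 and none was called. Tnf, a central inflammatory cytokine, was at 189, 86.8 and 121 CPM against 567 and 100.5 CPM (edgeR adjusted p = 0.444), and its direction turned without MCAO/R + WT 1 (-0.50). Il6 and Il10 were under the filter on low counts. Il6 was at 0 in all 6 sham libraries and at 72.2 and 0 CPM in MCAO/R + WT.

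In Lrg1-/- mice, members after MCAO/R were higher than after sham in Spp1, Ctsd, Fabp5, Ccl2, Hmox1 and the C1q genes, among others. They were lower in 7 of 14 genes of patrolling monocytes, a list that is not independent of the membership rule. Of 4821 genes, 62 were called higher (1.29%) and 83 lower (1.72%). Libraries did not overlap for 62 and 80 of them, a share not counted over all genes. The median log2 difference over all genes was 0.00. The count was 0 without sham + Lrg1-/- 1, which held 23 of the 38 sham members, 36 without sham + Lrg1-/- 5, 37 without MCAO/R + Lrg1-/- 2 and 27 without MCAO/R + Lrg1-/- 5. It was also 0 among members with under 3 microglial genes, and 2 with a minimum of 10 members per library.

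Spp1, Saa3 and Thbs1 were among the genes with the most positive differences. Spp1, the matricellular protein osteopontin, had 1 UMI in sham members and was at 394, 6733 and 5006 CPM after MCAO/R, a pooled ratio of 2261 (counting interval 406 to 89320). Its mean in all other cells of these mice was also 2789 CPM, against 4.11 CPM after sham. Saa3 was at 0 in sham and at 146, 354 and 197 CPM after MCAO/R, at least 36.3-fold higher. Thbs1 was at 15.4, 55.5 and 0 CPM in sham and 536, 766 and 440 CPM after MCAO/R (4.51 ± 0.63, edgeR adjusted p = 0.00852).

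Saa3, Thbs1, Ctsl, Cstb, Cd14, Gab1 and Cacna1d were called higher in both genotypes. The genotypes have no sample in common, and the values for Ctsl were 2.38 ± 0.48 on the log2 scale in Lrg1-/- and 2.98 ± 0.53 in WT, those for Cstb 2.45 ± 0.32 and 2.12 ± 0.34. In Lrg1-/-, Ctsl was at 159, 206 and 203 CPM in sham and 436, 1114 and 1243 CPM after MCAO/R, and Cstb at 92.3, 158 and 102 against 651, 622 and 615 CPM.

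Genes of macrophage maturation were called higher for 7 of 20 tested and lower for none, with a median log2 difference of 1.59. Arg1, a rule gene that some maturing cells carry, had a UMI in 15%, 27.8% and 57.6% of members after MCAO/R. It had one in 0% of sham members. This direction is therefore not independent of the rule, and how far admission set it was not tested. Under the rule without Arg1, 100 genes were called in this comparison, 97 of them among the 145. The 7 maturation genes were C1qa, C1qb and C1qc, the chains of complement component C1q, the lysosomal proteases Ctsd and Lgmn, Cd63 and Cd14. C1qb was at 395, 230 and 276 CPM in sham and 846, 1203 and 3017 CPM after MCAO/R (2.54 ± 0.53, edgeR adjusted p = 0.0265). Ctsd was at 466, 388 and 392 CPM in sham and 1489, 1510 and 2681 CPM after MCAO/R (2.24 ± 0.33, edgeR adjusted p = 0.0099). These genes are also abundant in microglia, and replicate 5, which had the highest microglial sum, had the highest level of both. Under the stricter membership rule C1qb kept its direction without being called, and Ctsd was still called.

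Of 19 lipid-handling genes, 4 were called higher (Abca1, Fabp5, Lpl and Spp1) and 1 lower (Pparg). The limit that Arg1 sets as a rule gene holds for this list too, Spp1 and Fabp5 included. Fabp5, a fatty acid carrier, was at 61.5, 0 and 43.6 CPM in sham and 463, 299 and 672 CPM after MCAO/R (3.74 ± 0.70, edgeR adjusted p = 0.0178). Pparg, the nuclear receptor that governs lipid uptake, went the other way, from 584, 87.2 and 174 CPM to 76.6, 30.7 and 15.6 CPM (-3.10 ± 0.67, edgeR adjusted p = 0.0291). Of the 19 genes 11 had higher levels. Cd36, a scavenger receptor for lipids, and the fatty acid carrier Fabp4 had lower levels without being called (-2.54 and -1.33 on the log2 scale).

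Chemokine ligands were called higher for 4 of 15 (Ccl2, Ccl9, Ccl12 and Cxcl2), and 13 of 15 had higher levels with a median of 2.34. Ccl2 was at 20.5, 55.5 and 29.1 CPM in sham and 708, 479 and 533 CPM after MCAO/R (4.08 ± 0.77, edgeR adjusted p = 0.0182). Cxcl2, which draws neutrophils, was at 548, 262 and 145 CPM in sham and 3320, 4249 and 4093 CPM after MCAO/R (3.58 ± 0.55, edgeR adjusted p = 0.0107). Of 19 receptors of migration, 5 had higher levels and the median was -0.54. The chemokine receptor Ccr1 (3.59) and the complement receptor C5ar1 (2.35) were called higher on the log2 scale, and the integrins Itga4 (-2.11), which binds VCAM-1 on the vessel wall, and Itgb7 (-1.72) lower.

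Of 12 haem and iron genes, 4 were called higher: Hmox1, Ftl1, Lcn2 and Trf. Hmox1, which breaks down haem, was at 46.1, 23.8 and 29.1 CPM in sham and 237, 197 and 582 CPM after MCAO/R (3.34 ± 0.69, edgeR adjusted p = 0.0265). Haemoglobin UMIs were present in these members at the sums given above, and with members of under 5% haemoglobin UMIs 138 genes were called in place of 145. The transferrin gene Trf is also a gene of oligodendrocytes, 3 of whose 8 tested markers (Cldn11, Mag and Trf) were called higher here, with a summed level of 1273 to 6737 CPM after MCAO/R and 602 to 1456 CPM after sham. Of the 62 genes called higher, 59 were higher in all other cells too, 38 of them by over 2-fold.

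All 14 patrolling-monocyte genes tested had lower levels, 7 were called (Dusp16, Ear2, Nr4a1, Pou2f2, Spn, Stap1 and Treml4) and the median was -2.27. Adgre4, a rule gene of the same patrolling monocytes, had a UMI in 42.9% to 100% of sham members and 3.22% to 35% after MCAO/R. The direction of this list is therefore not independent of the rule, and how far admission set it was not tested. Nr4a1, on which these monocytes depend, was at 743, 697 and 1569 CPM in sham and 494, 255 and 188 CPM after MCAO/R (-1.62 ± 0.39, edgeR adjusted p = 0.0381). Spn, the surface sialophorin CD43, fell from 164, 71.3 and 349 CPM to 42.1, 12.7 and 5.13 CPM (-3.67 ± 0.66, edgeR adjusted p = 0.015). Treml4 fell from 179, 111 and 349 CPM to 61.3, 23.6 and 14.9 CPM. Among the MCAO/R mice all 3 genes were lowest in replicate 5 and highest in replicate 1.

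Cd300e, an activating receptor of monocytes, fell from 154, 71.3 and 218 CPM to 26.8, 7.87 and 3.18 CPM (-4.10 ± 0.70, edgeR adjusted p = 0.015). Cybb, the catalytic subunit of the phagocyte NADPH oxidase, fell from 979, 396 and 1700 CPM to 394, 216 and 159 CPM, with 396 and 394 CPM in the closest sham and MCAO/R libraries (-1.92 ± 0.45, edgeR adjusted p = 0.0376). Of the 83 genes called lower, 48 were lower in all other cells and 8 by over 2-fold. Fam49a, Rap1gap2, Treml4 and Cyfip2 were called lower in both genotypes.

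**Figure D3:**
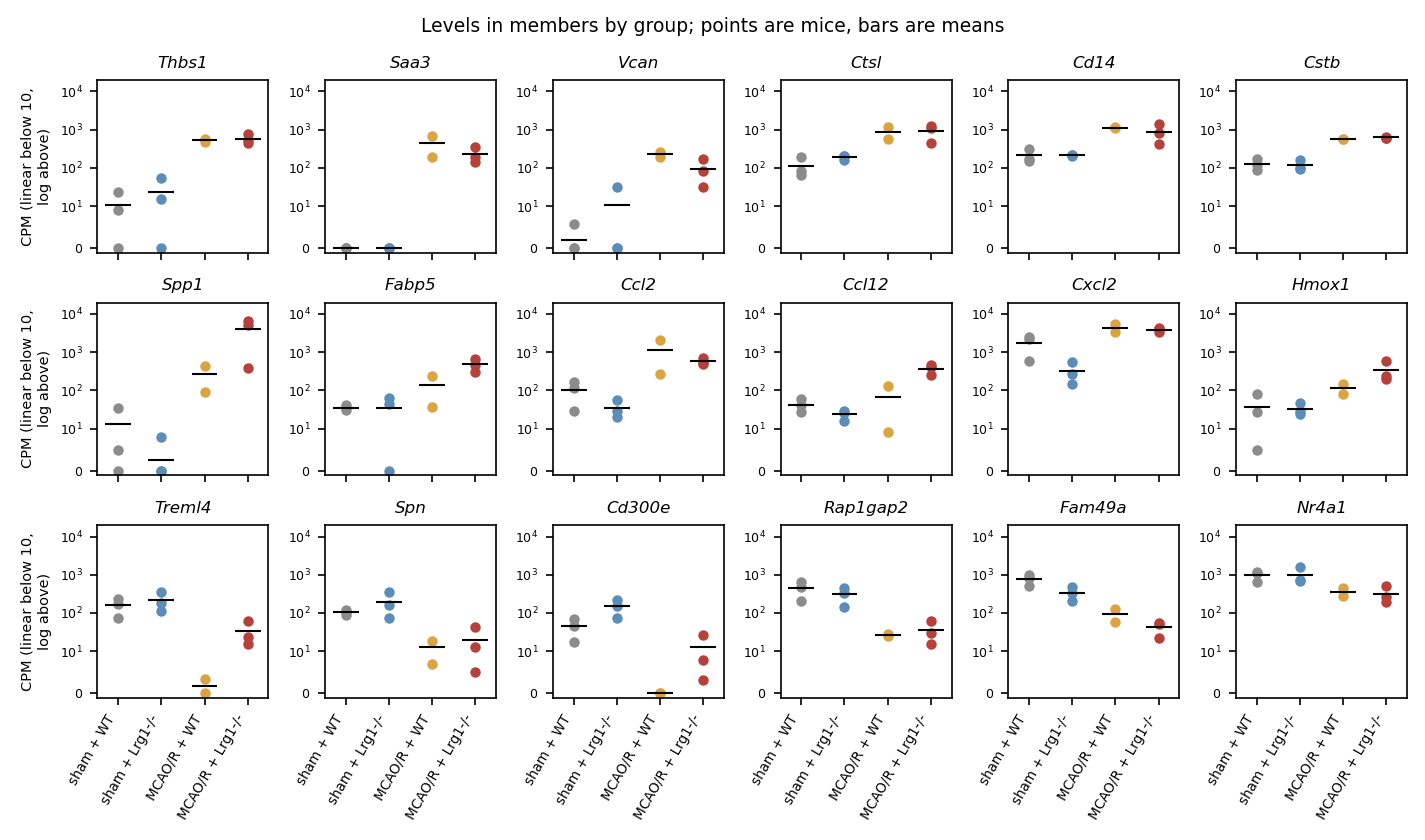
Each panel plots 1 gene in the summed members of each mouse (points, CPM, linear below 10 and log above) by group, with the group mean as a bar. Thbs1, Saa3, Ctsl and Cstb are higher after MCAO/R in both genotypes, and Treml4, Spn and Rap1gap2 are lower, with Spp1 highest in MCAO/R + Lrg1-/-.

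The genotype comparison after MCAO/R set 3 Lrg1-/- mice against 2 WT mice with 22 and 8 members. It showed lower levels of Ccl17, Mgl2, Irf4, Cd86 and genes of NF-kB signalling in Lrg1-/- members, and higher levels of transcripts of red blood cells and choroid plexus. Of 4821 genes, 42 were called higher (0.871%) and 75 lower (1.56%), with a median over all genes of 0.03. Libraries did not overlap for any of the called genes, a share not counted over all genes. The calls were fragile. They numbered 4 and 7 without either WT mouse, 27, 28 and 48 without Lrg1-/- replicates 1, 2 and 5, 1 (Ttr) under the stricter membership rule and 0 among members with under 3 microglial genes.

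Ccl17, Mgl2 and Irf4 had the most negative differences of all genes called. Ccl17, a chemokine for T cells, was at 320 and 54.8 CPM in WT and at 0, 4.03 and 0.489 CPM in Lrg1-/- (-6.31 ± 0.89 on the log2 scale, edgeR adjusted p = 0.00465). It had a UMI in 7 of 22 and 2 of 8 WT members, against 0 of 20, 9 of 461 and 2 of 1057. Mgl2, a galactose-binding lectin of macrophages and dendritic cells, was at 374 and 164 CPM in WT and 0, 6.05 and 0.733 CPM in Lrg1-/- (-6.24 ± 0.90, edgeR adjusted p = 0.00465). Both genes were low in sham + Lrg1-/- 5, at 0 UMIs, and Mgl2 lay at 104 to 252 CPM in the other 5 sham libraries.

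Irf4, a transcription factor of alternative activation, was at 144 and 36.5 CPM in WT and 0, 2.22 and 2.20 CPM in Lrg1-/- (-5.35 ± 0.96, edgeR adjusted p = 0.022). The sum of 12 dendritic-cell genes was 186 and 27.4 CPM in the WT members and 11.5 to 82.7 CPM in Lrg1-/-, with 6 of the 12 detected in WT, among them Cd209a and Ccl22, and Flt3, Xcr1, Clec9a, Itgae, Ccr9 and Klrd1 at 0. Flt3 and Siglech of this list were also exclusion genes of the rule. The 12 genes of antigen presentation by MHC class II had lower levels for 10, with a median of -1.43 against 0.03 over all genes, and the only one called was Cd86. H2-Aa was at 3020 and 2100 CPM in WT and 1252, 924 and 142 CPM in Lrg1-/-.

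Cd86, a co-stimulatory molecule that is also counted among M1 genes, was at 1532 and 804 CPM in WT and 302, 295 and 234 CPM in Lrg1-/- (-1.99 ± 0.36, edgeR adjusted p = 0.022). It was lower in all other cells as well (212 against 826 CPM). Of 8 M1 genes tested, Cd86 was the only one called, 4 of 8 had higher levels and the median was -0.15. Of 17 M2 genes, Ccl17 and Irf4 were called lower, 7 had higher levels and the median was -0.07. Tnf was at 567 and 100.5 CPM in WT and 84.2, 103 and 172 CPM in Lrg1-/-, overlapping between genotypes (-1.40 ± 0.68, edgeR adjusted p = 0.264), and the complement gene C1qb differed by 0.67 ± 0.55 (edgeR adjusted p = 0.521).

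Of 22 genes of TNF and NF-kB signalling, 3 were called lower, 17 had lower levels and the median was -0.67. Tnip3, an inhibitor induced by NF-kB, was at 931 and 694 CPM in WT and 11.5, 41.0 and 13 CPM in Lrg1-/- (-4.94 ± 0.92, edgeR adjusted p = 0.022). Nfkb1, a subunit of NF-kB, was at 1653 and 1425 CPM against 356, 449 and 502 CPM (-1.70 ± 0.38, edgeR adjusted p = 0.0395). Tnfaip3, which limits the pathway, was at 512 and 502 CPM against 256, 153 and 160 CPM. The pathway's subunit and its inhibitors were therefore lower together, and Nfkb1 and Tnfaip3 were lower in all other cells too (468 against 668 CPM and 151 against 446 CPM).

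Further genes called lower were Ifih1, the sensor of viral double-stranded RNA (-2.76), the scavenging receptor tyrosine kinase Axl (-3.05), the ribonuclease Ear2 (-3.02), the hyaluronan receptor Cd44 (-1.71), the early-response factor Klf6 (-1.80) and Cybb (-1.99), all on the log2 scale. Cybb was at 814 and 1352 CPM in WT against 394, 216 and 159 CPM in Lrg1-/-. Ear2 was the patrolling-monocyte gene called, at 368 and 320 CPM in WT against 95.7, 22.8 and 26.6 CPM, although 8 of 14 genes of that list had higher levels in Lrg1-/-. Of the 75 genes called lower, 61 had the same direction in all other cells, 20 by over 2-fold.

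Among the 42 genes called higher were 6 of 7 erythroid genes tested, 5 of 8 choroid plexus genes, the oligodendrocyte gene Cldn11 and Sparc, which is on the microglial list. Hbb-bs, an adult haemoglobin chain, was at 24.0 and 18.3 CPM in WT and 8550, 21900 and 21540 CPM in Lrg1-/-. Ttr, the choroid plexus carrier of thyroid hormone, was at 230 and 100.5 CPM against 45440, 28960 and 15530 CPM, and Enpp2 at 10.3 and 36.5 CPM against 1413, 1346 and 795 CPM. These transcripts were also unequal in all other cells (Hbb-bs 27000 against 160 CPM, Ttr 32990 against 1713 CPM), and their part in the other calls was not tested beyond leaving out members with 5% haemoglobin UMIs, after which 53 genes were called in place of 117.

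The sum of 10 genes of border-associated macrophages was 515 and 1379 CPM in MCAO/R + WT members and 257, 435 and 691 CPM in MCAO/R + Lrg1-/- members, so that the groups overlapped. All 10 genes had a UMI in Lrg1-/- members and 8 in WT members, with Cbr2 and Folr2 at 0. The coagulation factor gene F13a1, which monocytes also express, was at 162 and 1215 CPM in WT and 45.9, 181 and 236 CPM in Lrg1-/-. The mannose receptor gene Mrc1 had a UMI in 11 of 22 and 4 of 8 WT members, and in 4 of 20, 46 of 461 and 79 of 1057 Lrg1-/- members. Mrc1 is an exclusion gene of the rule, which allowed up to 2 of the 6, and no test was made on it. The part of these transcripts in the genotype differences of Ccl17, Mgl2 and the other genes was not tested.

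Ndufa4, a mitochondrial respiratory protein, was called higher (1.66 ± 0.39, edgeR adjusted p = 0.0444), at 651, 589 and 539 CPM in Lrg1-/- against 196 and 210 CPM in WT. Of 49 genes of the respiratory complexes 48 had higher levels, with a median of 0.82, and Ndufa4 was the only one called. The same was seen after sham surgery, where 48 of 49 had higher levels with a median of 0.81 and 2 were called (Ndufa4 and Uqcrq). Ndufa4 was also higher in all other cells of both Lrg1-/- groups.

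**Figure D4:**
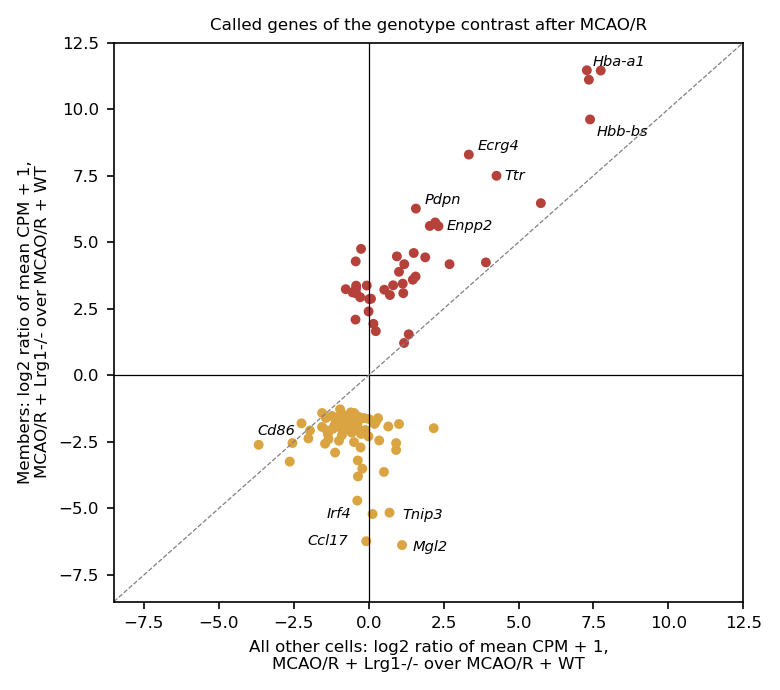
Each point is 1 of the 117 genes called between genotypes after MCAO/R, with the log2 ratio of mean CPM + 1 (Lrg1-/- over WT) in members on the vertical axis and in all other cells on the horizontal axis. Haemoglobin and choroid plexus genes lie high on both axes, whereas Ccl17, Mgl2, Irf4 and Tnip3 lie lowest on the members' axis and near or above 0 on the other.

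After sham surgery, where each genotype had 3 mice with 7 to 23 members, 29 genes were called higher in Lrg1-/- members (0.602%) and 21 lower (0.436%), with a median over all genes of 0.04. Erythroid and choroid plexus genes again led the higher calls, 4 of 7 and 6 of 8, with Enpp2 at 18, 11.6 and 20.1 CPM in WT and 2250, 2924 and 290 CPM in Lrg1-/-. The 50 calls fell to 0 among members with under 3 microglial genes, to 6 under the stricter membership rule and to 8 without sham + Lrg1-/- 1. The libraries did not overlap for 28 of the higher and all 21 of the lower genes, a share not counted over all genes. The most negative differences were in Olr1, Hspa1b and Hspa1a. Hspa1a was at 1267, 804 and 1570 CPM in WT and 123, 277 and 29.1 CPM in Lrg1-/- (-2.96 ± 0.55, edgeR adjusted p = 0.029), and Hspa1b fell by 3.27.

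Neat1, a nuclear long noncoding RNA, was at 1627, 1568 and 2586 CPM in sham + WT and 282, 166 and 465 CPM in sham + Lrg1-/- (-2.73 ± 0.40, edgeR adjusted p = 0.00541). Malt1, a protease that feeds NF-kB, was at 1564, 642 and 1011 CPM against 379, 246 and 247 CPM (-1.84 ± 0.39, edgeR adjusted p = 0.0434). Of the calls, 28 of 29 higher and 20 of 21 lower genes had the same direction in all other cells. Cd86 was at 701, 914 and 699 CPM against 425, 349 and 203 CPM without passing the test (-1.19 ± 0.35, edgeR adjusted p = 0.116). No chemokine, M1 or M2 gene was called.

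The difference between the genotype effects after MCAO/R and after sham was tested as an interaction. No gene was called in either direction (0.0% of 4821), 237 genes had an unadjusted p under 0.05 in edgeR and DESeq2 called 9. For Mgl2 the difference of differences was -5.65 ± 1.15 (edgeR adjusted p = 0.374), for Irf4 -5.96 ± 1.47 (0.544) and for Cd86 -0.79 ± 0.50, none of them called. Genes called after MCAO/R alone were therefore not shown to differ from their effect after sham.

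Within the 2 libraries with enough members, cells could be compared by the marker that brought them in. Members with Arg1 and no Ly6c2 numbered 90 in replicate 2 and 549 in replicate 5 of MCAO/R + Lrg1-/-, members with Ly6c2 and no Arg1 numbered 94 and 83, and members with Adgre4 and neither numbered 53 and 23. The tests were paired within these 2 mice and left 1 residual degree of freedom among them. Counts of Arg1, Ly6c2 and Adgre4 themselves follow from the classes.

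Between Arg1+ and Ly6c2+ members edgeR called no gene (0 of 9436 in either direction, 0.0%), with 646 genes at an unadjusted p under 0.05 and 75 called by DESeq2. Several values were wide apart in both mice. Spp1 was at 12890 and 5962 CPM in Arg1+ cells and 2992 and 1931 CPM in Ly6c2+ cells (edgeR adjusted p = 0.388). Fabp5 was at 488 and 888 CPM against 174 and 236 CPM, and Ccl24, a chemokine for eosinophils, at 140 and 96.3 CPM against 8.44 and 7.16 CPM. Ly6c2+ cells had more of Ifitm6 (180 and 136 CPM against 14.3 and 18.4 CPM) and of the MHC class II gene H2-Ab1 (1209 and 265 CPM against 387 and 65.5 CPM). These genes were chosen after their values were seen, and none passed the test. Of 17 inflammatory-monocyte genes, 16 had lower levels in Arg1+ cells, with a median of -1.17. Ly6c2, which sets these classes apart, marks the same cell type as that list, so its direction is not independent evidence.

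Adgre4+ members were higher than Ly6c2+ members of the same mice in genes of patrolling monocytes. This comparison was added after the data were seen. Of 6329 genes, 58 were called higher (0.916%) and 28 lower (0.442%), and of 14 patrolling-monocyte genes 11 were called higher and none lower, with a median of 2.49. That list and the marker Adgre4 both define this cell type, so its direction is not independent evidence.

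Pparg was at 255 and 218 CPM in Adgre4+ cells of replicates 2 and 5 and at 3.16 and 0 CPM in Ly6c2+ cells (6.59 ± 0.57, edgeR adjusted p = 6.42e-06). Cd36, a scavenger receptor for lipids, was at 448 and 166 CPM against 21.1 and 7.16 CPM, and Ear2 at 145 and 262 CPM against 5.27 and 14.3 CPM. Ace, the angiotensin-converting enzyme, was at 191 and 78.5 CPM against 14.8 and 14.3 CPM, Nr4a1 at 639 and 384 CPM against 197 and 158 CPM, and the phosphatase gene Dusp16 at 921 and 750 CPM against 68.6 and 90.7 CPM. Each of these genes was called and was higher in both mice. Several of the genes that were lower after MCAO/R than after sham in the members as a whole, among them Pparg, Cd300e, Treml4, Ear2, Rap1gap2, Nr4a1, Itga4 and Cybb, were called higher in Adgre4+ cells within MCAO/R mice. Adgre4 both sets this class apart and admitted members, more often after sham. The shared genes therefore support no statement on cell composition, which was not tested.

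Ly6c2+ cells were higher in chemokines, 4 of 13 being called. Ccl2 was at 548 and 382 CPM against 111 and 113 CPM in Adgre4+ cells (-2.18 ± 0.34, edgeR adjusted p = 0.00206), and Ccl7 at 292 and 88.3 CPM against 38.2 and 17.4 CPM. Ccl5 was at 568 and 432 CPM against 34.2 and 0 CPM and the granzyme Gzma, a gene of cytotoxic lymphocytes, at 209 and 47.8 CPM against 4.02 and 0 CPM. Ly6c2 is also carried by lymphocytes, and the rule removed cells only by 2 or more of its 13 other-cell genes. Of 8 endothelial genes tested, 2 (Itm2a and Ly6c1) were called higher in Ly6c2+ cells, and 1 of the 8 had a higher level in Adgre4+ cells. Cldn5, the endothelial gene among the 13, had a UMI in 46.9% and 16.5% of all members of replicates 2 and 5. The part of other cell types in the Ly6c2+ class was not tested. The calcium-binding protein gene S100a8 was at 335 and 1351 CPM against 66.4 and 410 CPM.

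**Figure D5:**
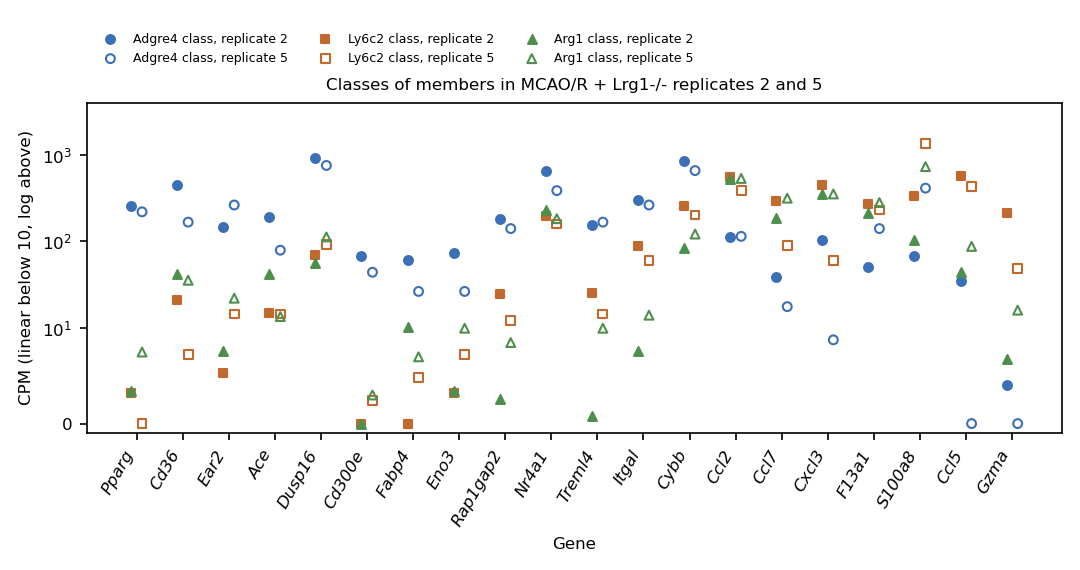
The plot gives the CPM (linear below 10, log above) of 20 genes in the summed Adgre4+, Ly6c2+ and Arg1+ members of MCAO/R + Lrg1-/- replicates 2 (filled) and 5 (open). The patrolling-monocyte genes on the left are highest in Adgre4+ cells of both mice, and Ccl2, Ccl7, Ccl5 and Gzma on the right are lower there than in Ly6c2+ cells.

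The genotype contrast after MCAO/R was last set against the same contrast in microglia of the same mice, using members minus microglia within each of the 4 libraries with 20 or more members. These microglia could include cells with rule markers that the exclusions had removed. WT was then represented by replicate 1 alone, so the spread between WT mice was assumed to be that of the Lrg1-/- mice and was not measured, and a trait of that mouse cannot be told apart from genotype. Of 17454 genes, 82 were called with a higher (0.47%) and 173 with a lower (0.991%) difference in members than in microglia, over a median of 0.65. With both WT mice and all 5 MCAO/R libraries 501 genes were called, 230 of them shared with the 255. The 255 fell to 14 with each cell thinned to 1000 UMIs, to 59 under the stricter rule, and to 79 and 93 without Lrg1-/- replicates 2 and 5. Mgl2 was at 374 CPM in WT members and 0, 6.05 and 0.733 CPM in Lrg1-/- members, and at 0.933 CPM in WT microglia and 3.58, 4.37 and 1.21 CPM in Lrg1-/- microglia, a difference of -8.39 ± 0.66. Ccl17 (-8.48), Irf4 (-5.99), Tnip3 (-5.31), H2-Eb1 (-5.69) and H2-Aa (-5.22) differed in the same direction on the log2 scale. With both WT mice, Spp1, genotype contrast in members minus microglia, was 0.13 and not called; with replicate 1 alone it was 3.22, with the call lost in 6 of 8 alternatives. It was at 89.3 CPM in WT members against 394 to 6733 CPM in Lrg1-/-, and at 850 CPM in WT microglia against 1111 to 8136 CPM. Of 16 MHC class II genes tested 7 were called lower and none higher, among them Cd74 and Ciita, and of 18 inflammatory-monocyte genes 8 were called lower, among them Vcan, Thbs1 and S100a4. None of the 16 genes of that list tested in members alone was called between genotypes after MCAO/R. Thbs1 was at 567 CPM in WT members and 536, 766 and 440 CPM in Lrg1-/- members, and at 10.9 CPM in WT microglia and 17.3, 69.3 and 93.7 CPM in Lrg1-/- microglia, so that members overlapped and microglia did not. Of 9 dendritic-cell genes tested 3 were called lower, Cd209a (-7.83), Ccr7 (-3.30) and Zbtb46 (-2.52), and none higher.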

How the data were processed

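Right brain tissue of 11 mice gave 1 droplet library each (10x 3′ chemistry). The deposited matrices hold unnormalised UMI counts per gene and barcode. Per the file headers, the authors obtained the counts from Cell Ranger 7.0.1, whereas the paper's methods name an earlier version. The submitters' processing notes also name STAR and mm10. Nothing links samples of a group to a shared litter or day, and p-values measure the spread between these mice.

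Members were chosen by the rule in the text over 155804 barcodes, of which 132437 passed the cell limits. The members and gene lists were chosen with earlier results of these data known. Microglia were non-members with at least 3 of 6 microglial genes, so cells with rule markers removed by the exclusions could be among them. Doublets were kept in the main results, and the 6% of cells with the highest doublet scores were removed as an alternative. CPM were computed from UMIs summed per library. Sums per library were tested with edgeR 4.0.16 (R 4.3.3, quasi-likelihood, TMM scaling, a filter on low counts) in 1 fit over all 11 libraries with 7 residual degrees of freedom and Benjamini-Hochberg adjustment. DESeq2 1.42.0 was an alternative, and shares were compared by exact permutation tests with SciPy 1.17.1. Summed members held 68836 to 4957669 UMIs per library. Counts were also simulated at these depths, with 1 dispersion (0.1046) for all genes and equal means over libraries apart from the changes. There, genes changed 4-fold were recovered at 73.1% for the genotype contrast after MCAO/R and at 57.6% for MCAO/R against sham in wild type. Spread that differs by gene and the drawing of few cells were not simulated, so recovery in the real data may be lower.

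Named genes were the 10 most positive and 10 most negative called genes of a comparison whose libraries did not overlap and whose mean reached 50 CPM in the higher group, up to 4 called genes of each of 43 lists, and the study's Tnf, Cd86, C1qb, Il6 and Il10. From these the text names a selection, and genes outside the rule were chosen after their values were seen. Genes with near-identical copies (Hspa1a and Hspa1b, Hba-a1 and Hba-a2, Hbb-bs and Hbb-bt) are uncertain, since reads can be split between them. Alternatives covered the tool, the count filter, the membership rule, thinning to 1000 UMIs, the minimum of members, the replicate block and leaving out each mouse.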

Additional observations from a re-analysis of the deposited data

Results flagged for a closer look

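A test of the difference itself with edgeR set the contrast of 3 Lrg1-/- mice with WT replicate 1 after MCAO/R in members against that in microglia of the same mice, and 255 of 17454 genes were called. The 10 described here are a selection from these. With 1 WT mouse, of 22 members, the spread between WT mice was assumed, and that mouse cannot be told apart from its genotype. With both WT mice 501 genes were called, 230 of them shared. The calls numbered 14 with each cell thinned to 1000 UMIs, 59 under the stricter membership rule and 79 and 93 without Lrg1-/- replicates 2 and 5.

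Among the 10, negative differences on the log2 scale were those of Ccl17 (-8.48), Mgl2 (-8.39), Irf4 (-5.99) and the NF-kB inhibitor Tnip3 (-5.31). The MHC class II genes H2-Eb1 (-5.69) and H2-Aa (-5.22) had the same sign, and so had the ribonuclease Ear2 (-4.43) and the calcium-binding protein gene S100a4 (-4.17). H2-Eb1 was at 2704 CPM in WT members and 705, 639 and 109 CPM in Lrg1-/- members, and at 6.83 CPM in WT microglia and 72.4, 69.2 and 28.1 CPM in Lrg1-/- microglia. S100a4 was at 972 CPM in WT members and 513, 923 and 432 CPM in Lrg1-/- members, against 8.28 CPM and 56.1, 142 and 116 CPM in microglia.

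The anti-inflammatory cytokine Il10 differed by -2.41, at 72.2 CPM in WT members and 23.0, 15.5 and 17.8 CPM in Lrg1-/- members, and at 15.6 CPM and 11.1, 19.9 and 30.2 CPM in microglia. Its WT value came from 21 UMIs in 2 cells. Spp1 was the gene of the 10 with a positive difference (3.22). Of 8 alternative settings, the call was lost in 6 for Spp1, in 4 for Il10, in 2 for Irf4 and in 1 for Ear2, and in 0 for the other 6 genes. With both WT mice, Spp1, genotype contrast in members minus microglia, was 0.13 and no longer called, and neither was Il10. The microglial sum was 804 CPM in the WT members and 1313 to 2663 CPM in the Lrg1-/- members of these libraries, and its part in these differences was not tested.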

How the results depend on the processing

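The calls were fragile: of the gene values recomputed, 1587 kept direction and side of the threshold, 597 lost the call, 24 gained it and 9 turned. The cause was not tested for any of these changes. Most genes were named because they were called, many also because their libraries did not overlap, and the settings reuse much the same cells. Few turns were therefore to be had, and they are no measure of stability. All 9 fell on Tnf, Cd86 and C1qb, study genes named whatever their test. The numbers of genes called below follow the order genotype contrast after MCAO/R (117), MCAO/R against sham in wild type (17), MCAO/R against sham in Lrg1 knockout (145) and genotype contrast after sham (50). DESeq2 gave 481, 190, 381 and 254, and no filter on low counts 536, 231, 430 and 251. Each member thinned to 1000 UMIs gave 19, 4, 50 and 13, with 508 genes tested. The stricter rule moved the first, second and last to 1, 106 and 6, and under 3 of 12 microglial genes gave 0, 37, 0 and 0, where edgeR had 240, 290 and 297 genes at an unadjusted p under 0.05 for the comparisons with 0. A minimum of 10 members moved the first and the last pair to 28, 2 and 24, and one of 20, with a lone library assumed to vary like the others, left 0 for the first and for the Lrg1 knockout (1174 and 837 at an unadjusted p under 0.05). DESeq2 was not run under these settings. The rule without Arg1 gave 65 and 32 for the first pair, under 5% haemoglobin UMIs gave 53 for the first, and without the 6% highest doublet scores gave 4 for wild type and 29 after sham. The interaction had 0 calls, 9 with DESeq2 and 42 unfiltered.

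Arg1+ against Ly6c2+ members (0) gave 75 with DESeq2, 113 unfiltered, 84 with 2 UMIs to call a cell positive, 3 without doublets and 10 with the stricter rule. Adgre4+ against Ly6c2+ members (86) gave 53 with DESeq2, 41 of them shared, and 156 unfiltered. Members minus microglia (255) gave 14 thinned, 501 over all 5 MCAO/R libraries and 59 with the stricter rule.

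Leaving out 1 mouse at a time, the counts ranged from 4 to 189, 4 to 52, 0 to 183, 8 to 53, 0 to 3 for the interaction and 79 to 184 for members minus microglia. The lowest came without MCAO/R + WT 1 for the first pair, without sham + Lrg1-/- 1 for the next pair and without MCAO/R + Lrg1-/- 2 for the last. Without sham + Lrg1-/- 1, MCAO/R against sham in Lrg1 knockout had 0 calls and 794 genes at an unadjusted p under 0.05 in edgeR. The 3 interaction calls came without MCAO/R + Lrg1-/- 5. For the class comparisons no residual degrees of freedom were left. The share differences ranged from 1.30 to 2.69, -0.0956 to 0.0614, 1.24 to 2.63 and 0.0225 to 0.0848 percentage points.

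The share of members among cells, MCAO/R + WT minus sham + WT, turned to 0.0128 when thinned, 0.0194 with 1 Lyz2 UMI as well and 0.0161 with under 3 microglial genes. The share of members among cells, sham + Lrg1-/- minus sham + WT, turned to -0.000199 with under 3 microglial genes and was 0.190 when thinned and 0.232 with 1 Lyz2 UMI as well, from 0.0444. With the stricter rule, Tnf turned to 0.41 between genotypes after MCAO/R and to -0.33 between surgeries in wild type, and Cd86 to 0.26 in Lrg1-/-. Without 1 mouse, the log2 difference of Tnf, genotype contrast after MCAO/R, ran from -2.15 to 0.42, and that of C1qb, genotype contrast after MCAO/R, from -0.071 to 1.82. In the same way Tnf ran from -0.50 to 2.11 and C1qb from -0.22 to 1.62 in wild type, and Cd86 from -0.090 to 0.95 in wild type and from -0.49 to 0.021 in Lrg1-/-. The turns came without MCAO/R + WT 1, except C1qb between genotypes (MCAO/R + Lrg1-/- 5) and Cd86 in Lrg1-/- (sham + Lrg1-/- 1).

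With the replicate block the counts were 179, 31, 138 and 74, 0 for the interaction, and the share of members among cells, MCAO/R + WT minus sham + WT, 0.00353. The numbers do not pair the mice: over 13 same-number pairs the correlation of deviations ran from -0.133 to 0.202. A minimum of 50 members gave no value, and one of 20 gave none for wild type, for the genotypes after sham or for the interaction.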

Other observations

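Il6, which the filter on low counts removed from the group comparisons, had no UMI in the members of any of the 6 sham libraries. After MCAO/R it had a UMI in 7 of 22 members of WT replicate 1, 0 of 8 of WT replicate 2, 0 of 20 of Lrg1-/- replicate 1, 24 of 461 of Lrg1-/- replicate 2 and 33 of 1057 of Lrg1-/- replicate 5. Il10 had a UMI in 2 of 51 sham + WT members and 1 of 38 sham + Lrg1-/- members. After MCAO/R it had a UMI in 3 of 30 WT and 102 of 1538 Lrg1-/- members. These counts pool cells over mice, and 1518 of the Lrg1-/- members came from replicates 2 and 5. The median member held 2807 UMIs in Lrg1-/- replicate 5, against 14111 and 14297 in the WT mice. The pooled shares therefore support no statement on genotype. Lpl, which releases fatty acids from lipoproteins, was at 0 in sham + Lrg1-/- members and at 53.6, 182 and 203 CPM after MCAO/R, at least 24.4-fold higher. Pdpn, the surface glycoprotein podoplanin, was at 0 in both MCAO/R + WT libraries and at 68.9, 63.9 and 94.6 CPM in MCAO/R + Lrg1-/-, at least 10.4-fold higher. It had higher levels in all other cells too (28.6 against 8.92 CPM).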
